A study of Homo sapiens with 15 samples.

Results

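The genes of cholesterol and fatty acid synthesis were followed in THP-1 cells, an established human monocytic leukaemia line, after exposure to infliximab or CDP870. Both agents bind tumour necrosis factor, infliximab being a monoclonal antibody and CDP870 the agent also known as certolizumab pegol. The set of 35 genes was a named list of enzymes and regulators, taken whole, and a gene was measured through the array probe sets annotated to it alone. By this rule 32 of the 35 genes had a probe set, 77 probe sets of 54613 in all, and 31 genes were bright enough to be tested. FDFT1, CYP51A1 and FADS1 had no probe set annotated to 1 gene only and were not analysed here, and the 3 probe sets of ELOVL6 lay below the brightness limit. The 5 groups held 3 samples each: infliximab for 6 h, infliximab for 24 h, CDP870 for 6 h, CDP870 for 24 h, and untreated cells at 0 h. No allele, transgene or further agent is named for any group, and no dose is stated in the sources used here. Untreated cells were sampled at 0 h alone, so against 0 h the agent and the hours in culture cannot be told apart.

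Cells build cholesterol from acetyl-CoA through mevalonate and squalene, and build fatty acids from the same precursor through malonyl-CoA. Both routes are driven by the SREBP transcription factors, which SCAP escorts out of the endoplasmic reticulum when sterols are scarce and which the INSIG proteins hold back when sterols are plentiful. SREBF2 is best known for the cholesterol genes and SREBF1 for the fatty acid genes, and both proteins act on sterol regulatory elements, often beside a CCAAT box bound by NF-Y. In monocytes and macrophages the balance of synthesis, storage and export of cholesterol is a well-studied part of lipid handling and of foam cell formation.

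The values are log2 summaries per probe set with an unknown zero, so differences between samples of 1 probe set can be read and levels of different probe sets cannot be compared. A difference was called when its limma p-value, adjusted by the Benjamini-Hochberg method over all 28897 tested probe sets, was under 0.05, and each gene was read from its brightest tested probe set. The series text speaks of biological replicates without saying whether cultures were separate, so the p-values rest on sample-to-sample spread that may be technical. Of the 12 monocytic markers 11 had a probe set and 10 lay above the array median on all 15 arrays, with CD14 above it on 2. Of the markers of other cell types with a probe set, CD3D and CD3E (T cell), CD79A (B cell), HBB (erythroid), COL1A1 (fibroblast) and APOA1 and TTR (hepatocyte) also lay above the median on all 15 arrays. PLIN1 (adipocyte) did so on 14 and DCN (fibroblast) on 4, while CD2, MS4A1, COL1A2, ALB, ADIPOQ and LEP did so on none. All 5 epithelial markers, EPCAM and the keratins KRT5, KRT8, KRT18 and KRT19, lay above the median on all 15 arrays. Their mean log2 level spanned 7.23 to 7.52 at 6 h of infliximab and 7.33 to 7.45 at 24 h, 6.23 to 6.47 at 6 h of CDP870 and 6.36 to 6.42 at 24 h, against 6.69 to 6.92 at 0 h, and its part in the results was not tested. The added hybridisation controls averaged a log2 of 7.75 ± 0.04 at 6 h of infliximab and 7.51 ± 0.15 at 24 h, 7.5 ± 0.12 at 6 h of CDP870 and 7.6 ± 0.2 at 24 h, against 7.38 ± 0.13 at 0 h (SD, n = 3 each). Over the tested probe sets 3 arrays correlated least with the rest, infliximab 24 h replicates 5 and 6 (median r of 0.972 and 0.979) and 0 h replicate 3 (0.982), against 0.983 to 0.99 for the other 12, and counts are also given without these 3. Infliximab 24 h replicate 7 had a lowest r within its group of 0.971, as did replicate 5. Its estimated array quality weight was 0.431, against 0.356 for replicate 5 and 0.706 for replicate 6.

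With infliximab 4 of the 31 genes were lower than at 0 h, at 6 h and again at 24 h, a pair of late sterol enzymes and a pair of fatty acid elongation enzymes. NSDHL removes a carbon from the sterol ring system after lanosterol. It had log2 values of 4.77, 4.88 and 4.74 at 6 h of infliximab and 5.06, 4.89 and 4.83 at 24 h, 5.21, 5.25 and 5.52 at 6 h of CDP870 and 5.14, 5.35 and 5.41 at 24 h, against 5.40, 5.30 and 5.29 at 0 h. All 6 infliximab samples lay below all 9 others. The share of all tested genes with such a separation was not counted, here or for the genes below. NSDHL fell by 0.53 ± 0.11 (SE) on the log2 scale at 6 h against 0 h, a 0.691-fold level, and fell by 0.40 ± 0.11 at 24 h (limma adjusted p = 0.0076 and 0.0357). Its other probe set fell by 0.48 and 0.45 (adjusted p = 0.0114 and 0.0189). The call of the brighter probe set at 24 h was lost in 12 of 25 alternative analyses, among them those without infliximab 6 h replicate 8, infliximab 24 h replicate 6 or 7, or any 1 of the 0 h arrays, with differences from -0.51 to -0.35 and adjusted p up to 0.204.

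EBP, the sterol isomerase that moves a ring double bond on the way to cholesterol, had log2 values of 6.75, 6.69 and 6.89 at 6 h of infliximab and 6.89, 6.61 and 6.80 at 24 h, 7.17, 7.27 and 7.26 at 6 h of CDP870 and 7.06, 7.11 and 7.22 at 24 h, against 7.32, 7.40 and 7.21 at 0 h. The infliximab samples were again the 6 lowest of the 15. EBP fell by 0.53 ± 0.1 at 6 h of infliximab, a 0.691-fold level, and fell by 0.54 ± 0.1 at 24 h (limma adjusted p = 0.00406 and 0.00389). Its 3 dimmer probe sets differed by -0.33, -0.05 and -0.33 at 6 h, none called, and by -0.4, -0.13 and -0.34 at 24 h, where only the first was called (adjusted p = 0.0269).

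HACD3, a 3-hydroxyacyl-CoA dehydratase of the elongation cycle for very long fatty acids, had log2 values of 8.20, 8.19 and 8.0 at 6 h of infliximab and 8.11, 8.07 and 8.06 at 24 h, 8.52, 8.54 and 8.63 at 6 h of CDP870 and 8.49, 8.50 and 8.43 at 24 h, against 8.63, 8.49 and 8.57 at 0 h. The same 6 samples were lowest, with no overlap with any other group. HACD3 fell by 0.43 ± 0.08 at 6 h of infliximab, a 0.741-fold level, and fell by 0.48 ± 0.08 at 24 h (limma adjusted p = 0.00588 and 0.00311), and 2 of its 3 other tested probe sets were also called at both times.

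ELOVL3, an elongase of saturated and monounsaturated very long fatty acids, had log2 values of 3.65, 3.19 and 3.44 at 6 h of infliximab and 3.55, 3.44 and 3.31 at 24 h, 3.94, 4.0 and 4.40 at 6 h of CDP870 and 4.22, 4.19 and 3.97 at 24 h, against 4.15, 4.38 and 4.36 at 0 h. It had the largest called change of the 31 genes against 0 h. ELOVL3 fell by 0.87 ± 0.14 at 6 h of infliximab, a 0.547-fold level, and fell by 0.86 ± 0.14 at 24 h (limma adjusted p = 0.00202 and 0.0023). Its 1 tested probe set, at 3.19 to 4.40, lay just above the array medians of 2.93 to 3.07. In RNA from whole cultures, fewer cells of a type and less RNA per cell cannot be told apart. With the level of the hybridisation controls as a covariate the differences at 6 h were -0.43 for NSDHL, -0.45 for EBP, -0.43 for HACD3 and -1.05 for ELOVL3 (limma adjusted p = 0.267, 0.196, 0.164 and 0.0298). In that fit 181 of all 28897 probe sets were called, against 2432 without the covariate.

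**Figure D1:**
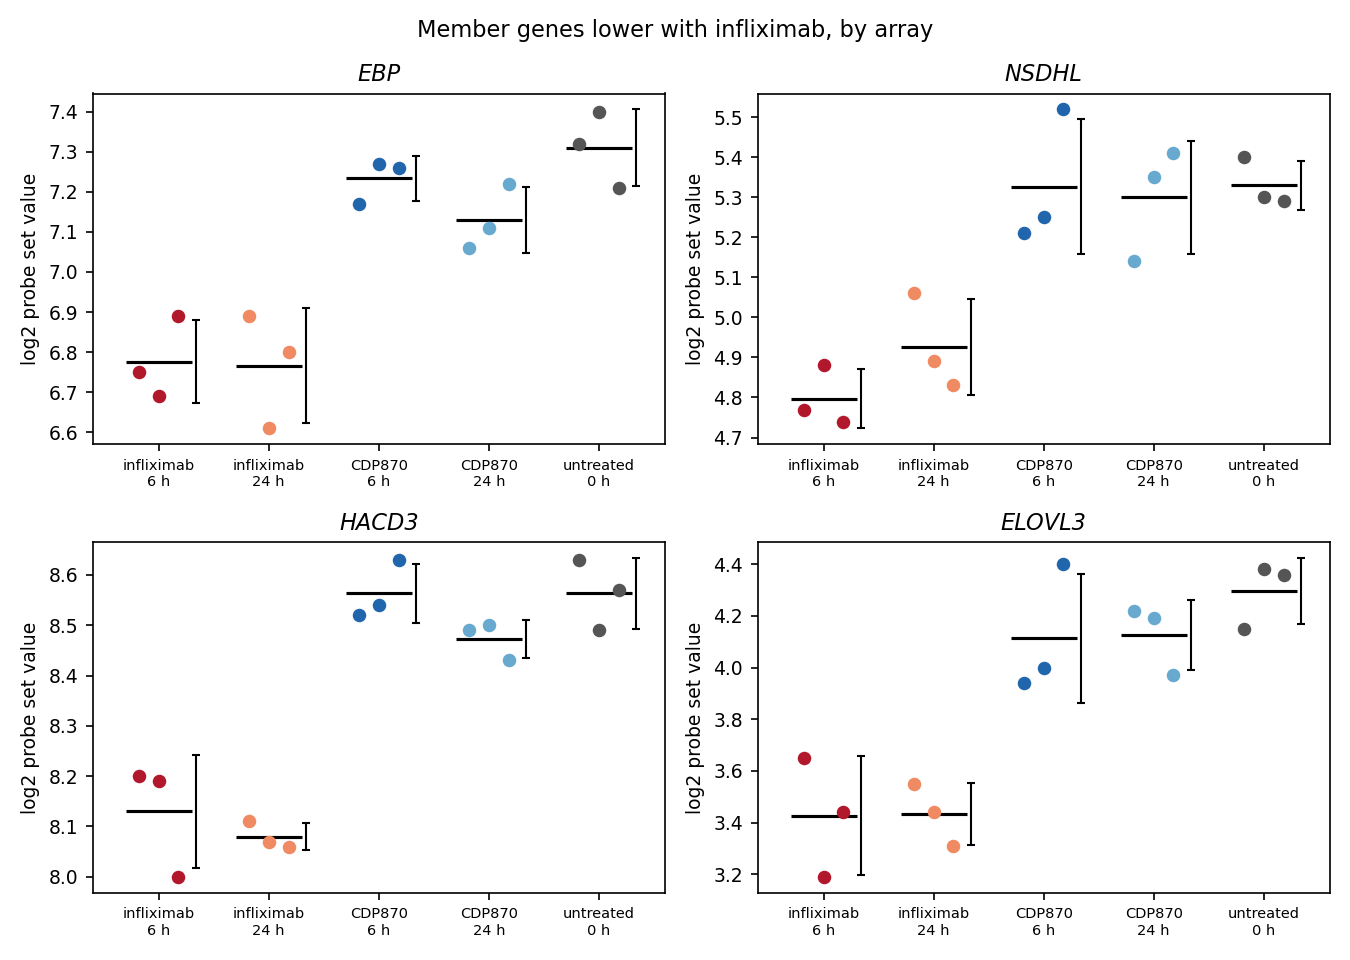
Log2 values of NSDHL, EBP, HACD3 and ELOVL3 on each array, by group from infliximab 6 h at the left to untreated 0 h at the right, with each point 1 array, lines at the means and bars of 1 SD. In all 4 panels the 6 infliximab points lie below the 9 CDP870 and 0 h points. The share of all tested genes with this pattern was not counted.

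The promoters of these 4 genes are shown because the 4 were called lower against 0 h at both times of infliximab. SREBF2 is shown as well, a called regulator and the 1 gene of the set with a match of the sterol regulatory element. SREBF1, a regulator also called, is not shown, and its window held neither that element nor a CCAAT box. Each printed window is 250 bases before to 50 after the annotated start, 300 bases in all, from RefSeq on GRCh38.p14, 5′ to 3′ on the plus strand, which is the gene's strand. NSDHL lies at chrX:152830813-152831112 and EBP at chrX:48521558-48521857, so both are on the X chromosome. HACD3 lies at chr15:65530213-65530512 (1 of its 2 windows in the table), ELOVL3 at chr10:102226049-102226348 and SREBF2 at chr22:41832855-41833154. Capitals mark each CCAAT or its reverse complement ATTGG, and in SREBF2 also the sterol regulatory element.
NSDHL: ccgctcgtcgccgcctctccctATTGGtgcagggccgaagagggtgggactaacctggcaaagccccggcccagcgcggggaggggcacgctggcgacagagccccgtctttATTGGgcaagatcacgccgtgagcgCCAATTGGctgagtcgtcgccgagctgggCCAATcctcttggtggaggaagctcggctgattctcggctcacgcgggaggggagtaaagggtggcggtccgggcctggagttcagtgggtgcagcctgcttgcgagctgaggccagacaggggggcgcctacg
EBP: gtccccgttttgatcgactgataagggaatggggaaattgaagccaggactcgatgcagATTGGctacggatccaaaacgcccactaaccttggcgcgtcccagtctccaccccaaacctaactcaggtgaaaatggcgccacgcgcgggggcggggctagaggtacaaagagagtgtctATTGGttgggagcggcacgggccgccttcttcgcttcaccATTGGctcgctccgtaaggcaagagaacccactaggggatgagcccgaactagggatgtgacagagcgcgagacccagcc
HACD3: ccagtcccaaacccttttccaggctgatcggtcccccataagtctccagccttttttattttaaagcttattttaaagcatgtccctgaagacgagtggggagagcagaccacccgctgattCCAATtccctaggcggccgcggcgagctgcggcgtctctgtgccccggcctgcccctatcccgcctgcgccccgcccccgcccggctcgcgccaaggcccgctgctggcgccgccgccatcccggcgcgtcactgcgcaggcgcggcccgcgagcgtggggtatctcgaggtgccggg
ELOVL3: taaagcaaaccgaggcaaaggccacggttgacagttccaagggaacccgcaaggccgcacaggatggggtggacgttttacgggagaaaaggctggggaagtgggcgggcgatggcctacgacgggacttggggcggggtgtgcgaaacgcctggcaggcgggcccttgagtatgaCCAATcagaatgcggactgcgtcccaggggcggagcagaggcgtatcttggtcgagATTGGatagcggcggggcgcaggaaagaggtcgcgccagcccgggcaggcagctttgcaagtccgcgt
SREBF2: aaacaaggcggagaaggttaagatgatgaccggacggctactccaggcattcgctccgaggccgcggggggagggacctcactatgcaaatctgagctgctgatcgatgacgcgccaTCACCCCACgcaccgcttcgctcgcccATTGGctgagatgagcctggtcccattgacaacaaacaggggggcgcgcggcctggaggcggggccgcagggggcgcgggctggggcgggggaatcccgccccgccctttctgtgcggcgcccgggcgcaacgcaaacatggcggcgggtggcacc

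Motifs were searched on both strands in the 31 of 35 genes with a window in the table (ACAT2, FDFT1, SQLE and FASN have none). The CCAAT box, CCAAT, was found in 24 of the 31 genes (77.4%), against 39.7% of all 27305 genes with a window. NSDHL held 5 matches, of which 2 share letters, EBP 3, ELOVL3 2, and HACD3 and SREBF2 1 each. The GC box, GGGCGG, was found in 29 of the 31 genes (93.5%), against 48.3% of all genes, and the E-box, CACGTG, in 5 (16.1%), against 8.77%. A sterol regulatory element spelled TCACNCCAC was found in SREBF2 alone (3.23%), at position -133 from the start and with no overlap with its CCAAT box, against 1.39% of all genes. The 27305 genes include genes not tested here and were not matched to the set for expression or GC content. All of these are matches of letters, not measured binding sites.

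At 6 h of infliximab the 4 genes called lower were 12.9% of the 31, where 5.7% of all 13607 tested genes were called lower. No gene of the set was called higher, where 4.52% of all genes were, and 10.2% of all genes were called in either direction. The median log2 change was -0.13 over the 31 genes and -0.05 over all genes, and -0.09 and -0.03 without the 3 arrays that stood apart. Values without overlap with 0 h were lower for 11 genes (35.5%, against 19.8% of all genes) and higher for 3 (9.68%, against 12.7%).

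By role, NSDHL and EBP were among 9 tested sterol genes and HACD3 and ELOVL3 among 5 tested elongation and desaturation genes, and no gene of the mevalonate arm (7), of regulation (6) or of core fatty acid synthesis (4) was called at 6 h of infliximab. All 7 mevalonate genes, from the thiolase ACAT2 to the farnesyl diphosphate synthase FDPS, had negative differences between -0.24 and -0.02. Of all 13607 tested genes 8066 were negative as well. MVK was at 0.11 when the 3 arrays that stood apart were left out, while the others of this arm stayed negative. Without the 3 arrays that stood apart 7 genes were called lower and none higher, against 7.55% and 5.03% of all genes, the 4 above with HMGCS1, IDI1 and SQLE. With the control level as a covariate ELOVL3 was the 1 gene called, among 181 of all 28897 probe sets.

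After 24 h of infliximab 4 genes were called lower (12.9%, against 3.45% of all genes) and 3 higher (9.68%, against 4.75%), with 8.2% of all genes called in either direction. SREBF2, SREBF1 and SCD, the stearoyl-CoA desaturase that makes oleate, were the 3 that rose. Median log2 changes were -0.04 over the 31 genes and -0.02 over all genes. Without the 3 arrays that stood apart, which leaves replicate 7 alone for 24 h of infliximab, they were -0.17 and -0.03. Values lay apart from 0 h without overlap for 6 genes that were lower (19.4%, against 11.4%) and 4 that were higher (12.9%, against 9.93%). All comparisons with 0 h, those of CDP870 included, share the same 0 h arrays.

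**Figure D2:**
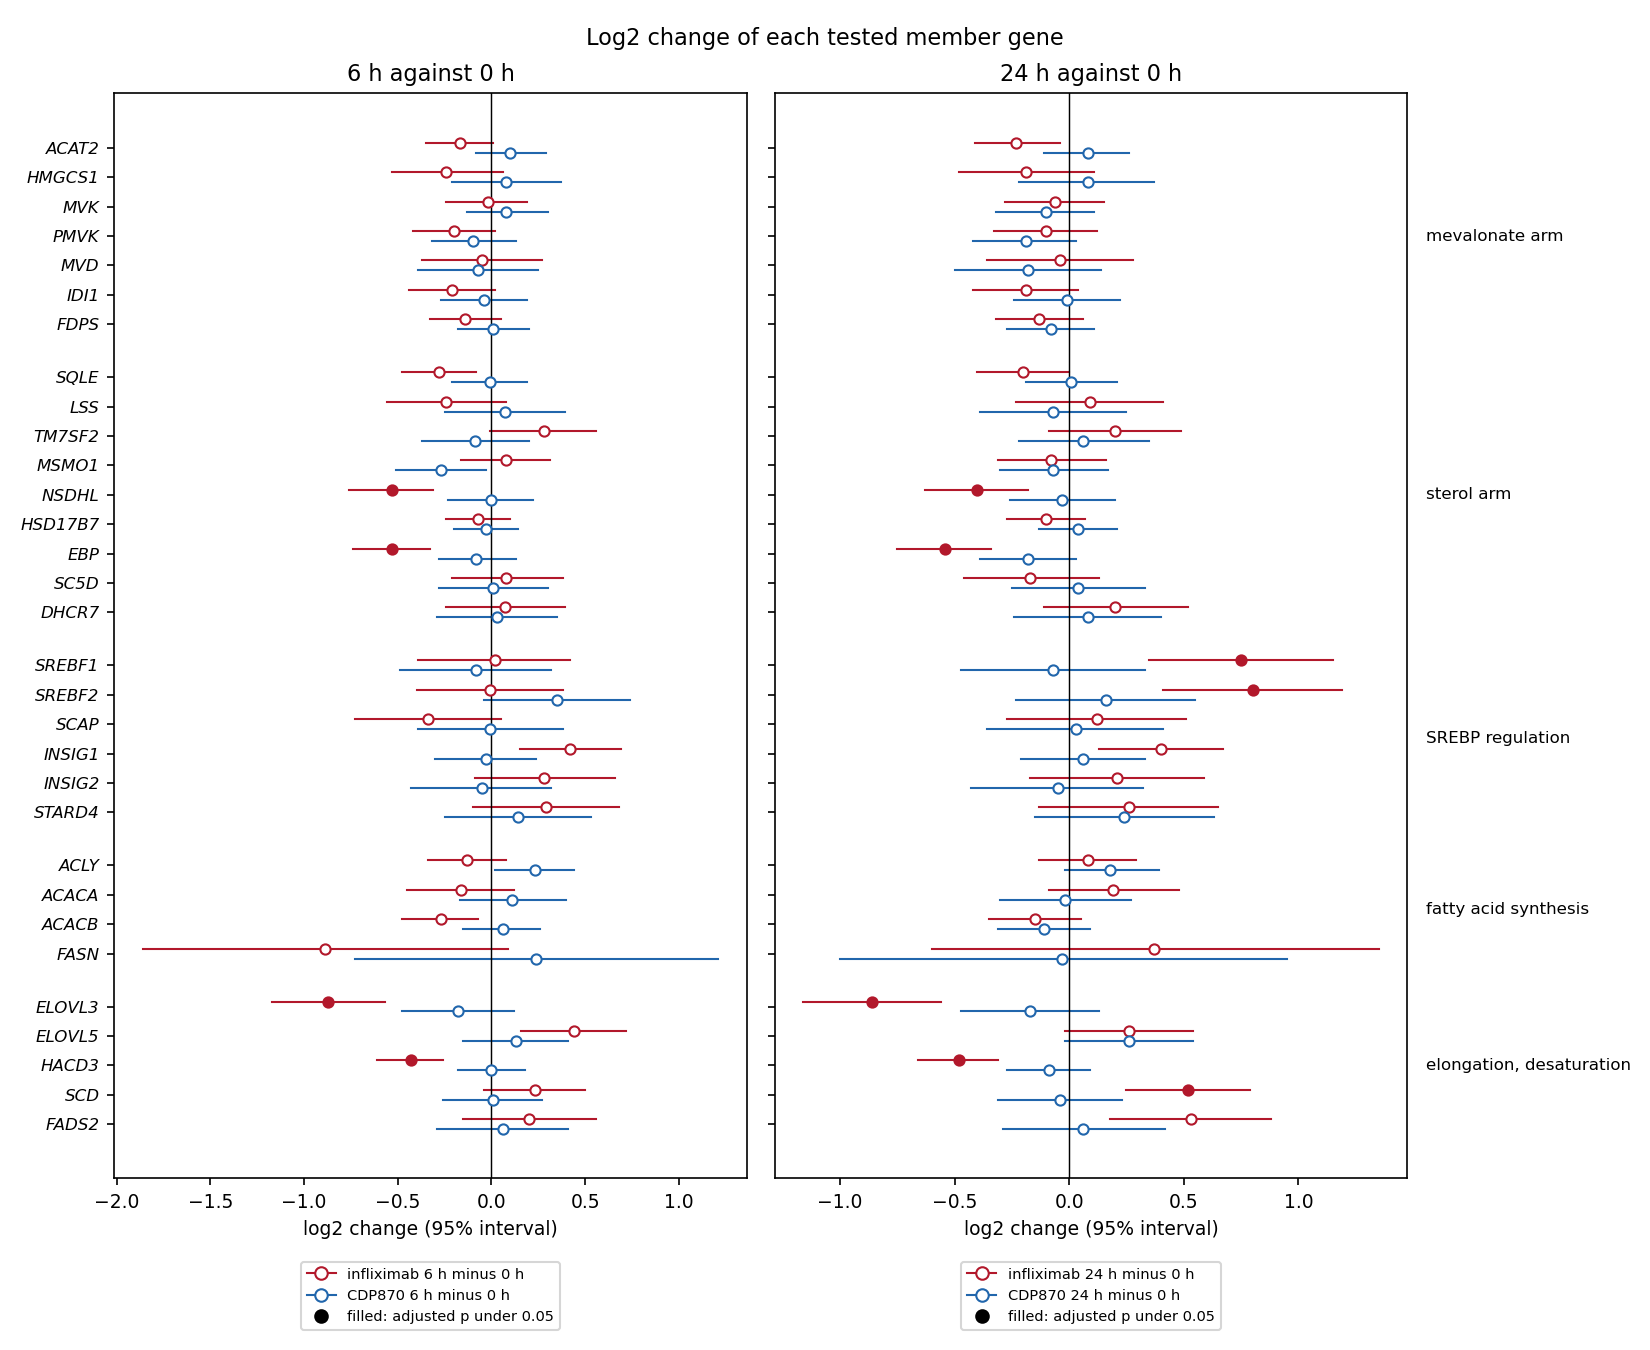
Log2 change of each of the 31 tested genes against 0 h, at 6 h in the left panel and 24 h in the right, with infliximab above CDP870 in each pair and 95% intervals from limma. Filled points have an adjusted p under 0.05, and all of them belong to infliximab.

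SREBF1, which encodes the SREBP of the fatty acid genes, had log2 values of 5.11, 5.23 and 5.16 at 6 h of infliximab and 6.27, 6.13 and 5.30 at 24 h, 5.21, 4.95 and 5.04 at 6 h of CDP870 and 5.11, 5.02 and 5.11 at 24 h, against 5.01, 5.38 and 5.06 at 0 h. Replicates 5 and 6 at 24 h were high, and replicate 7, at 5.30, lay within the range of 0 h. SREBF1 rose 1.68-fold at 24 h of infliximab (log2 0.75 ± 0.19 SE, limma adjusted p = 0.0285), and at 6 h the difference was 0.02 (adjusted p = 0.973).

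SREBF2, which encodes the SREBP of the cholesterol genes, had log2 values of 6.26, 6.25 and 6.31 at 6 h of infliximab and 7.48, 7.24 and 6.53 at 24 h, 6.70, 6.47 and 6.71 at 6 h of CDP870 and 6.39, 6.31 and 6.61 at 24 h, against 6.11, 6.35 and 6.38 at 0 h. At 24 h all 3 infliximab samples exceeded 0 h, while replicate 7 lay within the range of CDP870 at 24 h. SREBF2 rose 1.75-fold at 24 h of infliximab (log2 0.8 ± 0.18 SE, limma adjusted p = 0.0166), and at 6 h the difference was -0.01 (adjusted p = 0.989). Its 2 dimmer probe sets differed by 0.79 and -0.1 at 24 h (adjusted p = 0.0516 and 0.711).

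SCD had log2 values of 9.01, 8.90 and 8.92 at 6 h of infliximab and 9.26, 9.46 and 8.98 at 24 h, 8.81, 8.66 and 8.69 at 6 h of CDP870 and 8.82, 8.78 and 8.42 at 24 h, against 8.73, 8.72 and 8.69 at 0 h. On the probe set read for SCD every infliximab sample exceeded every other sample. SCD rose 1.43-fold at 24 h (log2 0.52 ± 0.12 SE, limma adjusted p = 0.0221), with a difference of 0.23 at 6 h that was not called (adjusted p = 0.284).

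These 3 increases, like the call of NSDHL at 24 h, depended on single arrays. On replicate 6 the 3′ minus 5′ difference, a sign of RNA quality, was 0.24 for GAPDH and 0.27 for ACTB, against at most 0.02 and 0.03 on the other 14 arrays, and its part was not tested. All 3 lost their call without infliximab 24 h replicate 5, where 4 genes of the set were called in all, without its replicate 6 (3 genes) and without 0 h replicate 2 (3 genes). SREBF1 and SCD lost theirs without 0 h replicate 4 (4 genes), and SCD without 0 h replicate 3 (5 genes). Over all 28897 probe sets these 5 fits called 1696, 1347, 1120, 1309 and 1513, in the same order, against 1899 with all 15 arrays. SREBF1 and SCD were also not called as the mean of all their tested probe sets, SCD was not called with the control level as a covariate, and none of the 3 was called in a fit of only the arrays compared (200 probe sets called). Without all 3 arrays that stood apart replicate 7 alone stands for 24 h of infliximab and is assumed to vary like the other groups. SREBF1 then differed by 0.26, SREBF2 by 0.28 and SCD by 0.27 (limma adjusted p = 0.285, 0.375 and 0.398). In that fit 2 genes were called lower, ELOVL3 and HACD3, and none higher, against 1.86% and 2.07% of all genes.

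INSIG1, which retains the SREBP and SCAP complex in the endoplasmic reticulum, had log2 values of 8.26, 8.10 and 8.09 at 6 h of infliximab and 8.16, 8.15 and 8.08 at 24 h, 7.70, 7.75 and 7.64 at 6 h of CDP870 and 7.90, 8.05 and 7.42 at 24 h, against 7.73, 7.69 and 7.77 at 0 h. The 6 infliximab samples were the highest of the 15. Against 0 h INSIG1 differed by 0.42 ± 0.13 at 6 h and by 0.4 at 24 h, short of a call (limma adjusted p = 0.0545 and 0.0772). INSIG2, SCAP and the cholesterol carrier gene STARD4 differed from 0 h by between -0.34 and 0.29 at 6 h of infliximab and by between 0.12 and 0.26 at 24 h, with no call.

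**Figure D3:**
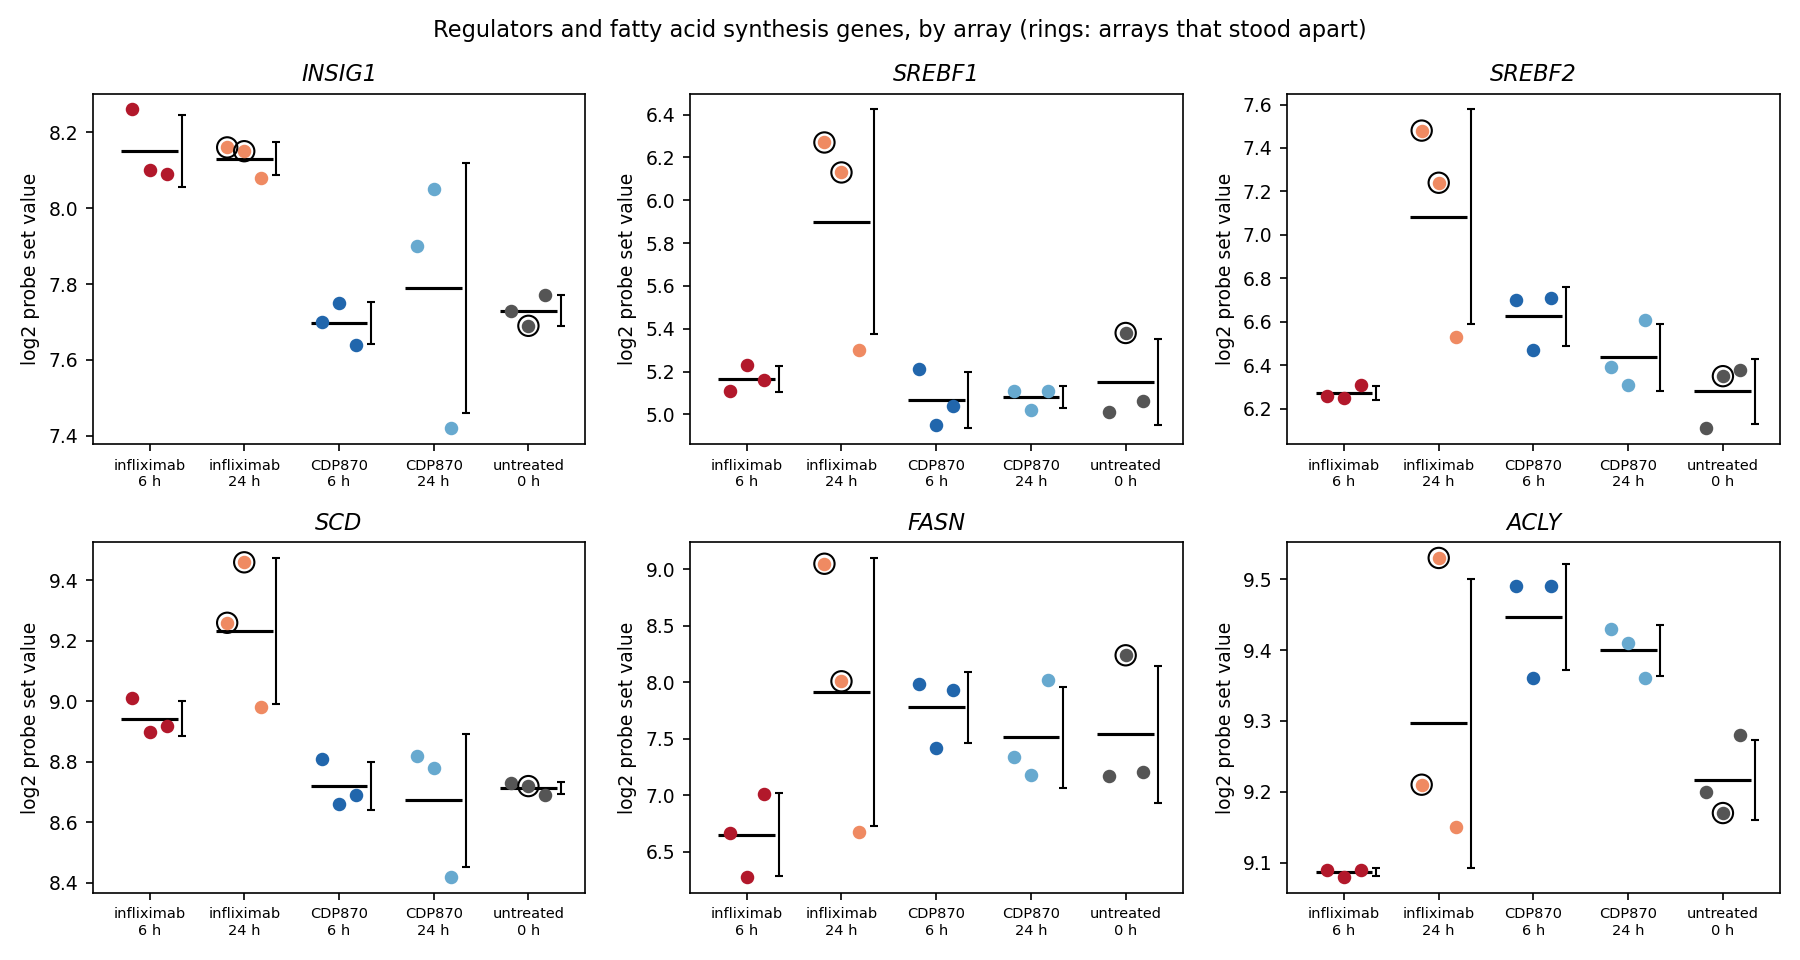
Log2 values of INSIG1, SREBF1, SREBF2, SCD, FASN and ACLY on each array, by group from infliximab 6 h at the left to untreated 0 h at the right, with each point 1 array, lines at the means, bars of 1 SD and rings on the 3 arrays that stood apart. At 24 h of infliximab SREBF1 is at 6.27 and 6.13 on replicates 5 and 6 and at 5.30 on replicate 7, while the INSIG1 points of both infliximab times lie above all others.

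Fatty acid synthase, FASN, varied most from array to array. It had log2 values of 6.67, 6.28 and 7.01 at 6 h of infliximab and 9.05, 8.01 and 6.68 at 24 h, 7.99, 7.42 and 7.93 at 6 h of CDP870 and 7.34, 7.18 and 8.02 at 24 h, against 7.17, 8.24 and 7.21 at 0 h. Its lowest samples were those at 6 h of infliximab with replicate 7 at 24 h, and its highest were infliximab 24 h replicate 5 and 0 h replicate 3, which are 2 of the 3 arrays that stood apart. FASN differed from 0 h by -0.89 ± 0.46 (SE) at 6 h of infliximab, with a 95% interval from -1.86 to 0.09 (limma adjusted p = 0.258), and by 0.37 at 24 h (adjusted p = 0.693). Replicates 5 and 6 at 24 h exceeded replicate 7 by 2.37 and 1.33 for FASN, by 0.97 and 0.83 for SREBF1, by 0.95 and 0.71 for SREBF2 and by 0.8 and 0.88 for SCAP.

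ACLY, the ATP citrate lyase that supplies acetyl-CoA, had log2 values of 9.09, 9.08 and 9.09 at 6 h of infliximab and 9.21, 9.53 and 9.15 at 24 h, 9.49, 9.36 and 9.49 at 6 h of CDP870 and 9.43, 9.41 and 9.36 at 24 h, against 9.20, 9.17 and 9.28 at 0 h. At 6 h the infliximab samples lay below 0 h and the CDP870 samples above it, and neither difference from 0 h was called (-0.13 for infliximab and 0.23 for CDP870). ACACB, the acetyl-CoA carboxylase linked to the mitochondria, had log2 values of 5.21, 5.05 and 4.90 at 6 h of infliximab and 5.11, 5.24 and 5.18 at 24 h, 5.38, 5.26 and 5.51 at 6 h of CDP870 and 5.17, 5.24 and 5.24 at 24 h, against 5.38, 5.30 and 5.30 at 0 h. It was lower than 0 h without overlap at both times of infliximab, by 0.27 and 0.15, with no call (limma adjusted p = 0.0939 and 0.399). At 24 h of CDP870 it also lay below 0 h without overlap. Its other tested probe sets had means of 4.34, 4.26, 4.24 and 2.95 at 6 h of infliximab and 4.48, 4.44, 4.47 and 2.72 at 24 h. They were at 4.58, 4.54, 4.25 and 2.83 at 6 h of CDP870, and at 4.75, 4.63, 4.24 and 3.02 at 0 h.

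Among the mevalonate and early sterol enzymes, ACAT2, which condenses acetyl-CoA, had log2 values of 7.71, 7.67 and 7.87 at 6 h of infliximab and 7.67, 7.74 and 7.67 at 24 h, 7.96, 7.99 and 8.12 at 6 h of CDP870 and 8.08, 8.01 and 7.90 at 24 h, against 7.93, 7.93 and 7.90 at 0 h. All 6 infliximab samples were below the other 9. HMGCS1, the hydroxymethylglutaryl-CoA synthase, had log2 values of 5.87, 5.70 and 5.99 at 6 h of infliximab and 5.76, 6.10 and 5.85 at 24 h, 6.19, 6.13 and 6.19 at 6 h of CDP870 and 6.29, 6.20 and 6.01 at 24 h, against 6.15, 5.78 and 6.34 at 0 h. SQLE, the squalene epoxidase, had log2 values of 7.52, 7.54 and 7.49 at 6 h of infliximab and 7.71, 7.63 and 7.45 at 24 h, 7.81, 7.70 and 7.84 at 6 h of CDP870 and 7.79, 7.82 and 7.80 at 24 h, against 7.80, 7.65 and 7.93 at 0 h. For both genes 0 h replicate 3 was the lowest of its group, and HMGCS1 overlapped with 0 h while SQLE at 6 h did not. HMGCS1 differed by -0.24 at 6 h of infliximab and SQLE by -0.28, with no call (limma adjusted p = 0.323 and 0.0842). The dimmer HMGCS1 probe set went the other way, by 0.47 (adjusted p = 0.191).

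CDP870 was not accompanied by any called gene of the set. At 6 and at 24 h 0 of 31 genes were called in either direction, as were 0% of all 13607 genes, and the smallest adjusted p was 0.997 at 6 h and 0.974 at 24 h. At an unadjusted p under 0.05 limma gave 2 genes of the set at 6 h, MSMO1 (-0.27), the sterol C4 methyl oxidase, and ACLY (0.23), among 561 of all genes, and 0 at 24 h among 627 of all genes. Median log2 changes over the set were 0.01 at 6 h and -0.02 at 24 h, against -0.01 and -0.04 over all genes. Without overlap with 0 h, 3 genes were higher and 1 lower at 6 h (9.68% and 3.23%, against 3.66% and 5.95% of all genes), and 1 was higher and 3 lower at 24 h (3.23% and 9.68%, against 1.68% and 7.44%).

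Set against CDP870 at the same hour, infliximab gave 6 lower genes and 1 higher at 6 h. The lower genes were 19.4% of the 31, against 4.95% of all genes, and the higher gene was 3.23%, against 5.55%, with 10.5% of all genes called in either direction. NSDHL fell by 0.53, EBP fell by 0.46, HACD3 fell by 0.43 and ELOVL3 fell by 0.69 (limma adjusted p = 0.00714, 0.00938, 0.00524 and 0.008). ACLY fell by 0.36 ± 0.1 (SE), a 0.779-fold level, and ACACB fell by 0.33, a 0.796-fold level (adjusted p = 0.0328 and 0.0438). INSIG1 was 1.37-fold higher with infliximab (log2 0.45 ± 0.13 SE, adjusted p = 0.038). A dimmer INSIG1 probe set was higher by 0.66 (adjusted p = 0.000343), and the third differed by 0.22 with no call (adjusted p = 0.223). The means of that dimmer probe set were 6.78 at 6 h of infliximab, 6.11 at 6 h of CDP870 and 6.50 at 0 h, so CDP870 lay below 0 h. INSIG1, ACLY and ACACB lost their calls, leaving 4 genes, without infliximab 6 h replicate 9 or 10 and without CDP870 6 h replicate 14 or 16, where 1301, 1429, 1373 and 1181 of all 28897 probe sets were called, against 2622 with all arrays.

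Many more genes of the set were separated at 6 h than were called. Values did not overlap between the agents for 17 genes that were lower with infliximab (54.8%, against 23.7% of all genes) and 7 that were higher (22.6%, against 17.8%), and the median difference was -0.15 over the set and -0.05 over all genes. All 4 core fatty acid genes were lower with infliximab without overlap, with FASN at -1.13 ± 0.46 (SE), a 0.458-fold level that was not called (limma adjusted p = 0.141). None of the 3 arrays that stood apart belongs to either agent at 6 h, so leaving them out changes only the estimate of the spread. With the remaining 12 arrays 14 genes were called lower and 3 higher (against 12.1% and 9.25% of all genes). FASN was then called with the same difference of -1.13 ± 0.23 (adjusted p = 0.00629), as were ACACA (-0.28), HMGCS1 (-0.32), SQLE (-0.27), the lanosterol synthase LSS (-0.32), SREBF2 (-0.35), SCAP (-0.33) and ACAT2 (-0.27), and TM7SF2 (0.36), a sterol reductase, and the elongase ELOVL5 (0.31) were called higher with INSIG1. The dimmer FASN probe set differed by -0.18 in the fit of all arrays (adjusted p = 0.397).

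**Figure D4:**
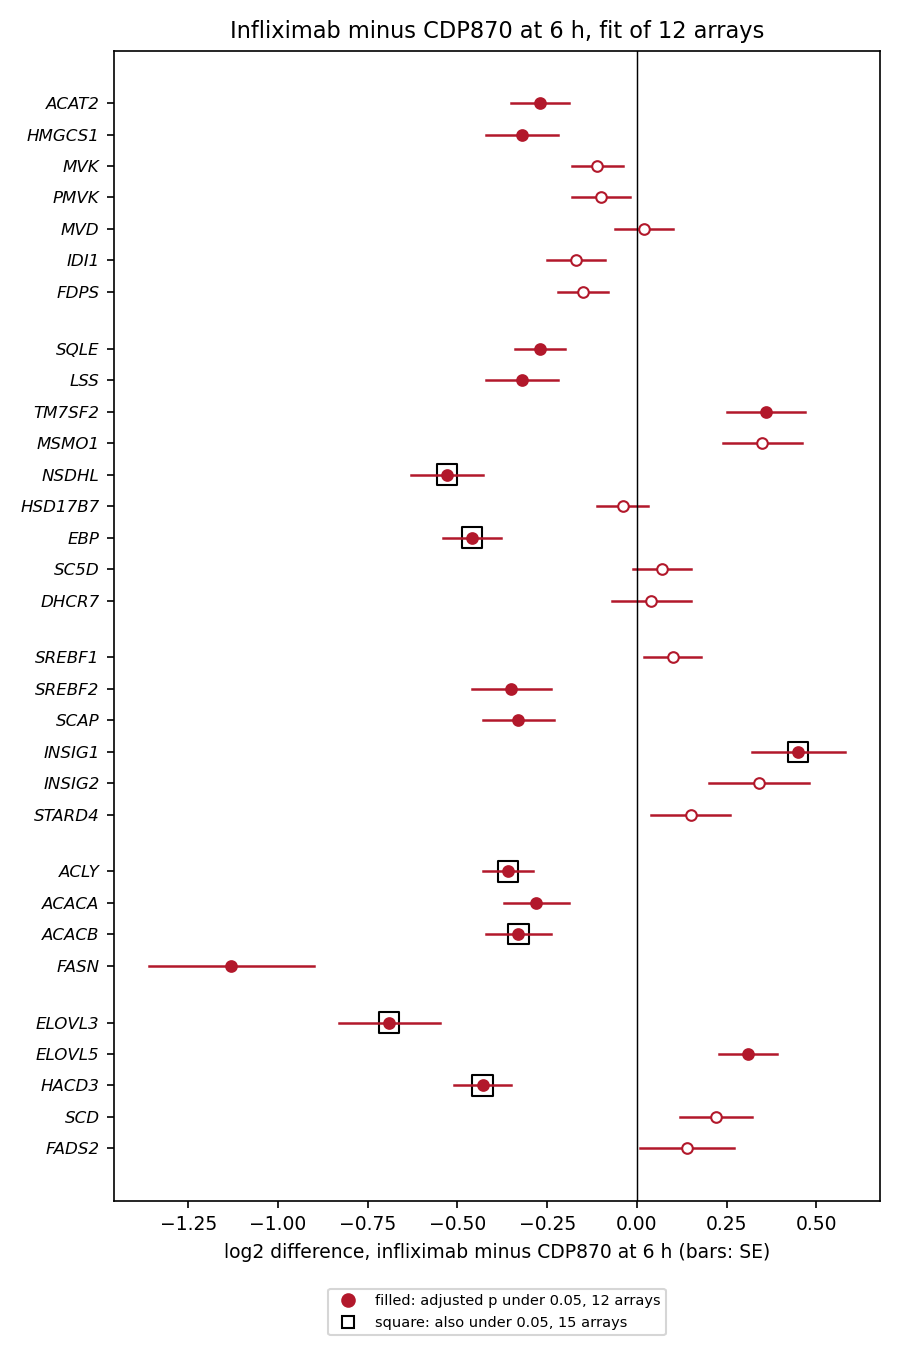
Log2 difference of each tested gene between infliximab and CDP870 at 6 h (infliximab minus CDP870), with standard errors from the fit of 12 arrays. Filled points have an adjusted p under 0.05 in that fit, 14 to the left of 0 and 3 to the right, and the 7 squares mark genes also called with all 15 arrays.

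Between the agents at 24 h 4 genes were lower with infliximab (12.9%, against 2.14% of all genes) and 3 higher (9.68%, against 6.06%), with 8.19% of all genes called in either direction. ELOVL3 fell by 0.69, HACD3 fell by 0.39, EBP fell by 0.36 and ACAT2 fell by 0.3 (limma adjusted p = 0.00839, 0.0105, 0.0361 and 0.0486). SREBF1 rose 1.77-fold, SREBF2 1.57-fold and SCD 1.47-fold (adjusted p = 0.0178, 0.0474 and 0.0141). NSDHL differed by -0.37, just short of a call (adjusted p = 0.0503), while its dimmer probe set fell by 0.5 (adjusted p = 0.00944). Values lay apart without overlap for 6 genes that were lower (19.4%, against 9.69%) and 4 that were higher (12.9%, against 14%), and the median difference was 0.02 over the set and over all genes. Without the 3 arrays that stood apart the median difference was -0.11 over the set and -0.02 over all genes. The count of 7 called genes was 2 without infliximab 24 h replicate 6, 3 without CDP870 24 h replicate 12 or 13, and 4 without infliximab 6 h replicate 8, CDP870 6 h replicate 14 or 15 or CDP870 24 h replicate 11. Over all 28897 probe sets these fits called between 1074 (without CDP870 24 h replicate 12) and 1627 (without CDP870 6 h replicate 15), against 1882 with all arrays. In the fit of 12 arrays ELOVL3 alone was called, lower, against 2.33% of all genes lower and 3.65% higher.

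Between 24 and 6 h of the same agent no gene of the set was called, as was 0% of all genes. For infliximab 8 genes of the set had an unadjusted limma p under 0.05 (1580 of all genes), the smallest adjusted p was 0.3, and the differences ran from -0.25 to 1.26, with FASN at the top. For CDP870 0 genes of the set had an unadjusted p under 0.05 (589 of all genes), and the differences ran from -0.27 to 0.2. The interaction of agent and time was likewise called for 0 genes of the set and 0% of all genes, with 7 genes of the set at an unadjusted p under 0.05 (1245 of all genes) and a smallest adjusted p of 0.502. Without infliximab 24 h replicate 7, which leaves replicates 5 and 6, infliximab at 24 h exceeded 6 h for 8 genes, LSS, SREBF1, SREBF2, SCAP, ACACA, FASN, SCD and FADS2, and the interaction was called for the first 6 of these. Those fits called 2462 and 920 of all 28897 probe sets, against 0 with all arrays. For the 4 genes that were lower with infliximab at both times, the difference between 24 and 6 h was 0.13 for NSDHL, -0.01 for EBP, -0.05 for HACD3 and 0.01 for ELOVL3.

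Of the 31 tested genes 20 were called in no comparison in the fit of all 15 arrays, among them 9 that the fit of 12 arrays called, IDI1 at 6 h of infliximab against 0 h and the others between the agents at 6 h (HMGCS1 and SQLE in both comparisons). In the mevalonate arm these were HMGCS1, the kinases MVK and PMVK, the decarboxylase MVD, the isomerase IDI1 and FDPS. In the sterol arm they were SQLE, LSS, TM7SF2, MSMO1, HSD17B7, SC5D and the last reductase, DHCR7, whose differences from 0 h lay between -0.28 and 0.28 with infliximab. HSD17B7 and IDI1 were read from probe sets marked as possibly matching other sequences too. Among the regulators SCAP, INSIG2 and STARD4, and among the fatty acid genes ACACA, FASN, ELOVL5 and FADS2, also stayed without a call. ELOVL5, which elongates polyunsaturated fatty acids, differed by 0.44 at 6 h of infliximab, and FADS2, the delta-6 desaturase, by 0.53 at 24 h, the nearest of these to a call against 0 h (limma adjusted p = 0.0511 and 0.073).

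Other genes of sterol and fatty acid metabolism were counted in 5 further lists. Of 9 tested genes of cholesterol efflux and storage 2 rose and none fell at 6 h of infliximab against 0 h, and 3 rose at 24 h, where 4.52% and 4.75% of all tested genes were called higher at these times. ABCA1, the transporter that exports cholesterol from macrophages, rose at 6 h (0.61 ± 0.14, log2, SE) and at 24 h (0.52), and NPC2, the lysosomal cholesterol carrier, rose by 0.4 and 0.47 (limma adjusted p = 0.0174, 0.042, 0.0156 and 0.00744). MYLIP, a ubiquitin ligase for lipoprotein receptors, rose by 0.52 at 24 h (adjusted p = 0.0104). Of 8 genes of SREBP processing RNF145, a sterol-responsive ubiquitin ligase of the endoplasmic reticulum, alone rose, by 0.55 at both times (adjusted p = 0.0137 and 0.0146). Against CDP870 at the same hours 3 of the 9 efflux and storage genes rose at each time and none fell, where 5.55% and 6.06% of all genes were called higher, among them ABCA1 by 0.64 at 6 h and 0.73 at 24 h (adjusted p = 0.0125 and 0.00698).

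Of 20 other genes of fatty acid metabolism 2 rose at 6 h of infliximab against 0 h and none fell, beside 4.52% and 5.7% of all genes. They were ACSL1, an acyl-CoA synthetase, by 0.63, and the malic enzyme ME1 by 0.47 (limma adjusted p = 0.00408 and 0.0235), and ACSL1 alone rose at 24 h, by 0.62 (adjusted p = 0.00507), where 4.75% of all genes did. Of 14 fatty acid oxidation genes 3 rose at 6 h and 2 at 24 h, against the same 4.52% and 4.75% of all genes, with DECR1, a reductase for unsaturated fatty acids, at 0.48 and 0.33 and the isomerase ECI1 at 0.39 and 0.41. In the list of other sterol and isoprenoid genes TMEM97, a sterol-regulated membrane protein, was the 1 of 7 called, at -0.39 at 6 h and -0.34 at 24 h (adjusted p = 0.0177 and 0.039), where 5.7% and 3.45% of all genes were called lower. CDP870 was called for 0 genes of the 5 lists at either time. The median change at 6 h of infliximab was 0.27 for efflux and storage, 0.15 for SREBP processing, 0.08 for other fatty acid genes, 0.09 for oxidation and -0.1 for other sterol genes, against -0.05 over all genes.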

How the data were processed

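RNA of THP-1 cells was labelled with biotin and hybridised to 15 Affymetrix arrays, per the labels. The deposited values are log2 probe set summaries made by the authors. GCRMA and GCOS 1.3.0 appear in the submitters' processing notes without a stated role, and background and normalization settings were not given in the sources used here. Groups came from the labels, and the replicate numbers used here are the running numbers in the sample titles.

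Of 54675 probe sets 62 controls were removed. Of the rest 41091 carried 1 gene symbol in the platform annotation, 1801 several and 11721 none, and only those with 1 name a gene. A probe set was tested if it exceeded its array's median on at least 3 of 15 arrays (28897 probe sets, 13607 genes), and the probe set with the highest mean represents its gene. The number of arrays limits the precision. In R 4.3.3, limma 3.58.1 (lmFit, contrasts.fit, eBayes) fitted 1 mean per group over all arrays, with two-sided tests of 9 comparisons, Benjamini-Hochberg adjustment within each, and a call at an adjusted p under 0.05. The fit was tested on simulated data. Figures used Python 3.11.15 and matplotlib 3.10.9. RefSeq tables of GRCh38.p14 gave current names and promoters.

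Values on every array are given for each gene of the set called in a comparison of infliximab with 0 h or with CDP870, and for INSIG1, SREBF1, SREBF2, HMGCS1, SQLE, FASN and SCD. Other genes are given by range and count, and genes of the 5 further lists are named, at most 3 a list, only when called. The genes, lists and alternatives were chosen with earlier results of these data known. Alternatives were other normalization, filter, weights, spread, covariate and probe set choices and arrays left out.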

Additional observations from a re-analysis of the deposited data

How the results depend on the processing

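The numbers in the sample titles run on across the groups, so they cannot show whether samples were paired, and no pairing was modelled. In 25 alternatives ELOVL3 kept its call in all 25 in each of the 4 infliximab comparisons, and HACD3 in 24 at 6 h and 24 at 24 h against 0 h and in 25 at 6 h and 23 at 24 h against CDP870. EBP kept it in 24, 23, 24 and 13, in the same order, and NSDHL in 24 and 13 against 0 h and 24 against CDP870 at 6 h. At 24 h against 0 h SREBF2 kept it in 20, SREBF1 in 18 and SCD in 16. Against CDP870 at 6 h INSIG1 kept it in 16, ACLY in 17 and ACACB in 10. Against CDP870 at 24 h SCD kept it in 20, SREBF1 in 19, ACAT2 in 6 and SREBF2 in 5. The count of called genes against 0 h at 6 h of infliximab, 4, was 11 with array weights, 1 with the hybridisation controls as covariate and 7 without the 3 arrays that stood apart, among 4588, 181 and 3107 of all 28897 probe sets (2432 by default). At 24 h the count of 7 was 1 with only the compared arrays and 2 without the 3 arrays (200 and 984 probe sets, 1899 by default). Against CDP870 at 6 h the count of 7 was 4 with no filter, 13 with only the compared arrays, 16 with array weights, 2 with the covariate and 17 without the 3 arrays (2184 of 54613 with no filter, then 5117, 6326, 751 and 5625 probe sets, 2622 by default). At 24 h it was 4 with no filter, 1 with only the compared arrays and 1 without the 3 arrays (1452 of 54613, 331 and 1477 probe sets, 1882 by default). Leaving out 1 array at a time gave 4 to 5 and 3 to 8 genes for infliximab against 0 h at 6 and 24 h, 4 to 8 and 2 to 7 against CDP870, 0 to 8 for infliximab at 24 h against 6 h and 0 to 6 for the interaction, and 0 throughout for CDP870. Sign changes over the alternatives were followed only for the genes with values given on every array, and those that turned were uncalled values. Other genes turned sign too. Without the 3 arrays LSS, DHCR7, SCAP and ACACA, among others, turned negative at 24 h of infliximab against 0 h and against CDP870. Against 0 h they went from 0.09, 0.2, 0.12 and 0.19 to -0.2, -0.13, -0.39 and -0.05. SREBF2 at 6 h of infliximab (-0.01) became 0.01 with quantile normalization, centring, gene means or without infliximab 6 h replicate 9, 0.04 with weights or without 0 h replicate 4, 0.25 with the covariate, and 0.03 without 0 h replicate 3 or the 3 arrays. HMGCS1 there became 0.12 with gene means, and SREBF1 became -0.02 without infliximab 6 h replicate 9 and -0.05 and -0.03 without 0 h replicates 2 and 4, up to 0.13 without replicate 3. At 24 h FASN became -0.20 and ACLY -0.04 without infliximab 24 h replicates 5 and 6 in turn, and -0.51 and -0.09 without the 3 arrays, against 0.99 and 0.15 without replicate 7. FASN against CDP870 at 24 h became -0.17 without infliximab 24 h replicate 5 and -0.83 without the 3 arrays, against 1.02 without replicate 7. The cause of each shift was not tested. With 3 arrays a group, small changes cannot be called, and how low values were treated is not known.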
